A study of Mus musculus with 6 samples.

Results

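Transcripts of 9 myeloid C-type lectin receptors were followed in macrophages sorted from mammary glands of tumour-prone mice at 11 and 8 weeks of age. The genes are Clec4e, Clec4d, Clec4n, Clec5a, Clec7a, Clec12a, Clec4a1, Clec4a2 and Clec4a3. They were taken by symbol from a table of 43432 genes, where they hold 10 entries because Clec7a is listed more than once. The mice were females of the FVB/N strain carrying MMTV-PyMT, a transgene that expresses the polyoma middle T oncogene in mammary epithelium from a viral promoter, so both groups carry the oncogene and no gland without it was used. The groups are 3 libraries from 11-week mice (later tumours) and 3 from 8-week mice (earlier tumours). Live cells had been gated on the leukocyte marker CD45, on MHC class II and on the lipopolysaccharide co-receptor CD14. The sample titles number the libraries of each age with a tag, "an", that the labels do not spell out. Unless it marks separate animals, the spread behind each p-value could be technical.

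C-type lectin receptors are membrane proteins of macrophages, monocytes, neutrophils and dendritic cells that bind sugars, lipids and the debris of dead cells. Mincle (Clec4e), MCL (Clec4d) and Dectin-2 (Clec4n) have no activating tail of their own and signal through the Fc receptor gamma chain, while MDL-1 (Clec5a) signals through the adaptor encoded by Tyrobp. Dectin-1 (Clec7a) carries an activating motif in its own tail. DCIR (Clec4a2) and MICL (Clec12a) carry an inhibitory motif that recruits phosphatases, and Clec4a1 and Clec4a3 are close relatives of DCIR. Activating members recruit the kinase Syk and the adaptor Card9, which lead to cytokine production.

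All 9 genes lie on mouse chromosome 6 (GRCm38). Clec4a1 (122921848 to 122934619), Clec4a3 (122952515 to 122969875), Clec4a2 (123106428 to 123143999), Clec4n (123229843 to 123247021), Clec4d (123262107 to 123275268) and Clec4e (123281789 to 123289870) follow each other within 368.0 kb. Clec12a (129342691 to 129365303) and Clec7a (129461591 to 129472777) lie together further along. Clec5a (40574894 to 40585821) lies apart from both groups. Clec4e, Clec5a and Clec7a are on the minus strand and the others on the plus strand.

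Upstream sequences of 4 receptors are printed to show the letters that these genes share. RefSeq upstream sequences (GRCm38.p6) were found for 8 of the 9 genes. The motif GAGGAA, which holds the GGAA core read by PU.1 and other ETS factors of the myeloid lineage, was searched on both strands in the 250 bases before each start. It occurred in 7 of these 8 genes (Clec4a1, Clec4a3, Clec4d, Clec4e, Clec5a, Clec7a and Clec12a) and in 25.9% of all 27025 genes with such a sequence. The motif TTGNGCAA, a form of the palindrome read by C/EBP factors, occurred before Clec4e and Clec12a and in 2.99% of all genes. In Clec4e it begins 66 bases before the start and a GAGGAA begins 56 bases before it, with no overlap between them. Both motifs were chosen after the sequences had been seen, and a match describes letters, not a bound site. Capitals mark the motifs on either strand, and each run reads 5′ to 3′ on the strand of its gene (chr6:123289872-123290021 minus, chr6:40585822-40585955 minus, chr6:129472780-129472929 minus and chr6:122921598-122921847 plus).
Clec4e: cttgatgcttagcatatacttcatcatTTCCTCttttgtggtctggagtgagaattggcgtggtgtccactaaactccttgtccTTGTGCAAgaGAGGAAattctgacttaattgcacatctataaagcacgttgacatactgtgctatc
Clec5a: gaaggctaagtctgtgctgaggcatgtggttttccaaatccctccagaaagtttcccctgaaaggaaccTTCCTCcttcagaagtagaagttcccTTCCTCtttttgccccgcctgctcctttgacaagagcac
Clec7a: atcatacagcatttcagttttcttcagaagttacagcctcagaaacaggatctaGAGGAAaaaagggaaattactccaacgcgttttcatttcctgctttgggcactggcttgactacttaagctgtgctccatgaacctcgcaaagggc
Clec4a1: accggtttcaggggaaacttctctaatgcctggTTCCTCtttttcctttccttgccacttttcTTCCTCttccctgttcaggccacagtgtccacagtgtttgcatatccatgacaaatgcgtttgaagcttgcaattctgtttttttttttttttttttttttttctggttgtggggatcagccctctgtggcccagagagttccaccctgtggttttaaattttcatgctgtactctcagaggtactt

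The libraries held 38784434 to 75004875 recovered reads. Each receptor had between 851 and 7666 reads in each library, so counting error was at most 3.43% of a value, against a spread between replicates of 16.2% to 65.3% of the mean at 11 weeks and 12.0% to 44.6% at 8 weeks. Macrophage identity was checked with 12 markers, whose summed level ran from 746794 to 845263 normalized counts at 11 weeks and from 716089 to 923515 at 8 weeks. Lyz2 made up most of that sum, and 0 of the 12 passed the test (limma). Cd14, Fcgr1 and C1qb were higher and Ptprc (which encodes CD45) and Csf1r lower at 11 weeks without overlap, with log2 fold changes of 0.63, 0.74, 0.25, -0.42 and -0.27. Of all tested genes, 6.81% were higher and 5.12% lower at 11 weeks without overlap. CD14 and CD45 were themselves used in the sort. Within an age, 11-week replicate 3 was the lowest library in 7 of the 9 receptors, and 8-week replicate 3 in 6 of them. These libraries also had the highest share of mitochondrial ribosomal RNA within their age, 48.6% in 11-week replicate 3 and 51.8% in 8-week replicate 3, over a range of 35.2% to 51.8%. The part of this share in the receptor values was not tested. The 9 receptors summed to 30475, 30348 and 19786 normalized counts in the 11-week libraries, against 30145, 25897 and 24430 in the 8-week libraries. In bulk RNA of sorted cell populations, fewer cells of a type and less RNA per cell cannot be told apart.

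No receptor passed the test between the ages. With limma over 21675 genes, 0 of the 9 had an adjusted p under 0.05, where 0.0507% of all genes did (11 genes; 0.0369% higher and 0.0138% lower at 11 weeks). The adjusted p of the receptors ran from 0.584 to 0.85 (limma), and 2 of the 9, Clec4a1 and Clec12a, had an unadjusted p under 0.05, both lower at 11 weeks, a level that 8.03% of all genes reached (4.76% higher and 3.27% lower). Which receptors reached it depended on the method: Clec7a alone with DESeq2, Clec4a1 and Clec7a with edgeR, and Clec4a1, Clec7a, Clec12a and Clec4d with limma-voom. Values of 0 of the 9 receptors separated the ages without overlap, where 11.9% of all tested genes did (6.81% higher and 5.12% lower). The edgeR quasi-likelihood test and DESeq2 on recovered reads also called 0 of the 9, beside 0.0646% and 2.8% of all genes. Of the receptors, 4 had a positive log2 fold change and 5 a negative one, with a median of -0.26 over the 9 and 0.05 over all tested genes. In the authors' deposited table the log2 fold changes of the 9 receptors ran from -0.62 (Clec7a) to 0.50 (Clec4d) and their adjusted p from 0.375 to 0.854, where 1.91% of the genes with an adjusted p were under 0.05. With DESeq2 on recovered reads these 2 genes were at -0.74 and 0.59, larger in size. The sources used here do not give how the deposited fold changes were estimated, so their sizes may not compare directly with those given here.

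**Figure D1:**
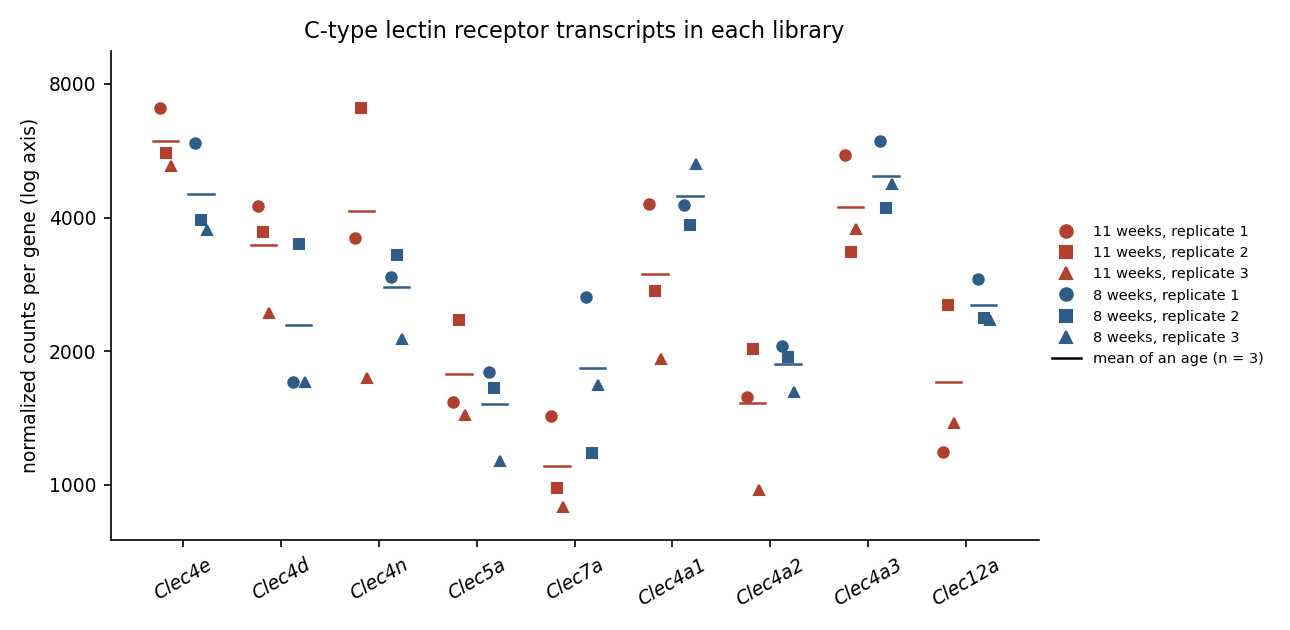
Normalized counts of the 9 receptor genes (log axis) in each of the 3 libraries at 11 weeks (left of each pair) and the 3 at 8 weeks, with the mean of each age as a bar. The ages overlap in every one of the 9 genes.

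Among the 9, the 4 receptors that depend on a signalling adaptor had the positive fold changes, and the largest of these was that of Clec4d. Clec4b1, an adaptor-coupled receptor outside the 9 described below, had a log2 fold change of -0.92 (limma adjusted p = 0.594). Clec4d, which encodes MCL and helps bring Mincle to the cell surface, was at 4243.4, 3712.8 and 2435.4 normalized counts in the 11-week libraries, against 1704.8, 3478.7 and 1703.1 in the 8-week libraries. One 8-week library, replicate 2, lay among the 11-week values, while replicates 1 and 3 lay below all of them. The log2 fold change was 0.64 ± 0.31 (SE; 95% interval -0.01 to 1.29; limma adjusted p = 0.634), which spans anything from no change to a 2.45-fold rise.

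Clec4e, which encodes Mincle, a receptor for mycobacterial glycolipids and for a protein released by dying cells, was at 7048.7, 5580.8 and 5233.3 normalized counts in the 11-week libraries, against 5883.9, 3944.2 and 3758 in the 8-week libraries. Only 8-week replicate 1 reached into the 11-week range. The log2 fold change was 0.41 ± 0.23 (SE; 95% interval -0.07 to 0.90; limma adjusted p = 0.69). The neighbours Clec4e and Clec4d did not keep a fixed proportion: their ratio was 1.66, 1.5 and 2.15 at 11 weeks, against 3.45, 1.13 and 2.21 at 8 weeks.

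Clec4n, which encodes Dectin-2, a receptor for fungal mannans, varied most among the 9 at 11 weeks. It was at 3606.2, 7074.7 and 1744.7 normalized counts in the 11-week libraries, against 2939.7, 3288.9 and 2131 in the 8-week libraries. The 11-week libraries held both the highest and the lowest value, and the 8-week values lay between them. The log2 fold change of 0.37 ± 0.38 (SE; 95% interval -0.43 to 1.17; limma adjusted p = 0.822) turned to -0.13 without 11-week replicate 2.

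Clec5a, which encodes MDL-1, was at 1538.3, 2356.9 and 1435.7 normalized counts in the 11-week libraries, against 1791.3, 1650 and 1134.2 in the 8-week libraries. Its highest value was again in 11-week replicate 2, and without that library its log2 fold change of 0.21 ± 0.30 (SE; 95% interval -0.42 to 0.84; limma adjusted p = 0.85) came to -0.01.

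The 5 receptors with negative fold changes were Clec7a, Clec12a and the DCIR group. Clec7a encodes Dectin-1, the receptor for fungal beta-glucan, and was at 1431.6, 981.9 and 892.8 normalized counts in the 11-week libraries, against 2643.7, 1179 and 1679.2 in the 8-week libraries. The 8-week replicates 1 and 3 lay above all 11-week values, and replicate 2 lay among them. Its log2 fold change of -0.69 ± 0.33 (SE; 95% interval -1.40 to 0.02; limma adjusted p = 0.637) was the most negative of the 9, and it was -0.38 without 8-week replicate 1 and -0.97 without 8-week replicate 2. These values come from the entry ENSMUSG00000079293, which the table types as a polymorphic pseudogene. The other Clec7a entry, typed as protein coding, shares 9645 bases of span with it and stood at 0 in all 6 libraries. The sources used here do not give how reads in the shared span were assigned, so the Clec7a level is uncertain.

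Clec12a, which encodes MICL, an inhibitory receptor for uric acid crystals from dead cells, was at 1187.1, 2546.4 and 1382.2 normalized counts in the 11-week libraries, against 2914.8, 2373.2 and 2357.3 in the 8-week libraries. Replicates 1 and 3 of the 11-week group lay below all 8-week values, and replicate 2 lay among them. The log2 fold change was -0.65 ± 0.30 (SE; 95% interval -1.29 to -0.02; limma unadjusted p = 0.0435, adjusted p = 0.609). It was -0.98 without 11-week replicate 2 and -0.43 without 11-week replicate 1 (limma adjusted p = 0.376 and 0.783).

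Clec4a1, a relative of DCIR, was at 4294.9, 2727.9 and 1918.7 normalized counts in the 11-week libraries, against 4265.6, 3843 and 5284.3 in the 8-week libraries. The 11-week replicates 2 and 3 lay below all 8-week values, and replicate 1 lay inside the 8-week range. The log2 fold change was -0.65 ± 0.28 (SE; 95% interval -1.24 to -0.06; limma unadjusted p = 0.033, adjusted p = 0.584).

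Clec4a2, which encodes DCIR itself, was at 1580.6, 2028.3 and 975.2 normalized counts in the 11-week libraries, against 2050.8, 1945.1 and 1619.4 in the 8-week libraries. Clec4a3, its other relative, was at 5544.5, 3338.8 and 3767.7 normalized counts in the 11-week libraries, against 5950.8, 4194.9 and 4763.3 in the 8-week libraries. Both genes overlapped broadly between the ages. Their log2 fold changes were -0.35 ± 0.30 and -0.26 ± 0.24 (SE; limma adjusted p = 0.805 and 0.816). The genes of the DCIR group resemble each other in sequence, and the sources used here do not give the treatment of reads that match more than one of them, so the split between them is uncertain.

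**Figure D2:**
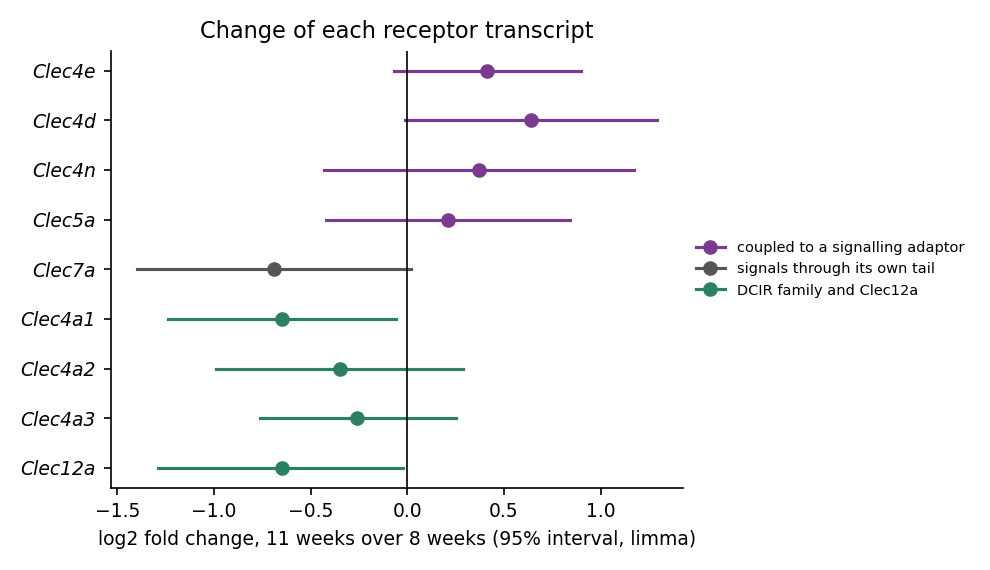
Log2 fold change of each receptor, 11 weeks over 8 weeks, with its 95% interval from limma. Colours mark receptors coupled to an adaptor, Clec7a with its own tail, and the DCIR family with Clec12a. This last set is a grouping neither by family nor by signalling, since Clec12a is not a DCIR relative and lies beside Clec7a. The 4 adaptor-coupled receptors lie right of 0 and the other 5 left of it, and the intervals of Clec4a1 and Clec12a alone exclude 0 before adjustment.

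The proportion between the adaptor-coupled receptors and the DCIR group with Clec12a was computed within each library, where scaling between libraries cancels. Summed normalized counts of Clec4d, Clec4e, Clec4n and Clec5a were 16436.6, 18725.2 and 10849.1 in the 11-week libraries, against 12319.7, 12361.8 and 8726.3 in the 8-week libraries. Those of Clec4a1, Clec4a2, Clec4a3 and Clec12a were 12607.1, 10641.4 and 8043.8 in the 11-week libraries, against 15182, 12356.2 and 14024.3 in the 8-week libraries. The ratio of the first sum to the second was 1.30, 1.76 and 1.35 at 11 weeks, against 0.81, 1.0 and 0.62 at 8 weeks. The first sum was the larger in all 3 libraries at 11 weeks, while at 8 weeks the sums were nearly equal in replicate 2 and the second was the larger in replicates 1 and 3. The ages did not overlap.

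The mean ratio was 1.47 ± 0.25 at 11 weeks and 0.81 ± 0.19 at 8 weeks (SD, n = 3 each), a 1.83-fold difference of geometric means. Leaving any 1 receptor out of the sums gave a difference of 1.72-fold to 2.0-fold with no overlap, and leaving out any 1 library gave 1.62-fold to 2.05-fold. Against Clec4a2 and Clec12a alone, the receptors with an inhibitory motif, the ratio was 5.94, 4.09 and 4.6 at 11 weeks and 2.48, 2.86 and 2.19 at 8 weeks. Against Clec7a alone it was 11.48, 19.07 and 12.15 at 11 weeks and 4.66, 10.48 and 5.2 at 8 weeks. The ratio was formed after the fold changes were known and combines them, so it carries no p-value and is no evidence apart from them. Every sum above the line holds receptors with positive fold changes, and every sum below it receptors with negative ones. Leaving 1 out could therefore hardly change the direction and is no check of it, and the ratios against other sets share their numerator. Clec4b1, adaptor-coupled but not among the receptors followed, was in neither sum.

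**Figure D3:**
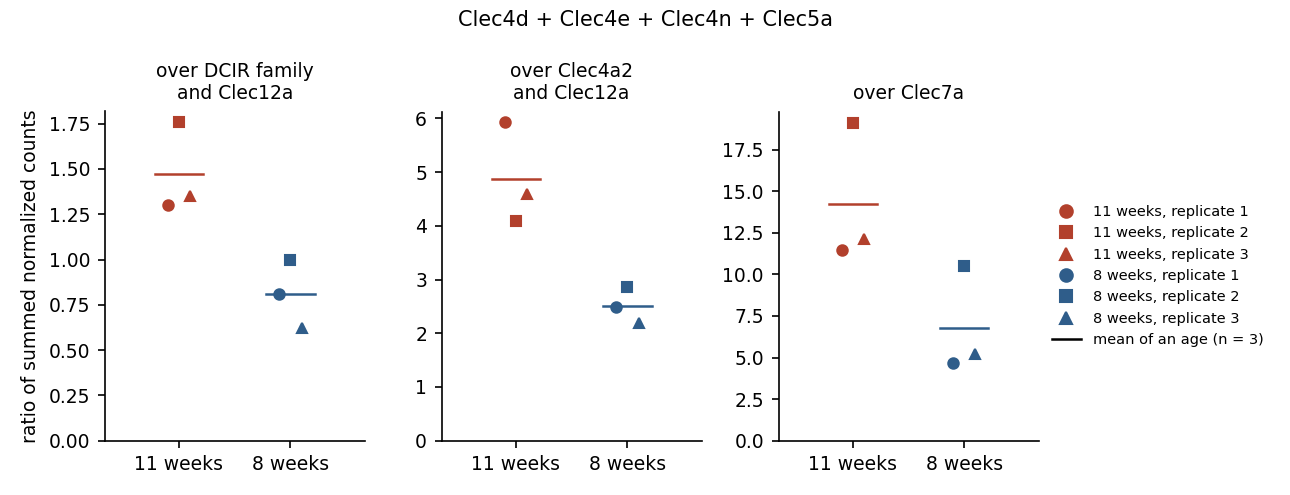
Ratio of the summed normalized counts of Clec4d, Clec4e, Clec4n and Clec5a to those of 3 sets of other receptors, for the 3 libraries at 11 weeks (left) and the 3 at 8 weeks, with the mean of each age as a bar. In each panel every 11-week library lies above every 8-week library, from 1.30 to 1.76 against 0.62 to 1.0 in the first.

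The table lists 11 genes between the start of Clec4a1 and the end of Clec4e, and 9 of them were tested. At the Clec4a1 end, Clec4a1, Clec4a3 and Clec4a2 had negative log2 fold changes, and Clec4b1, which lies between Clec4a3 and Clec4a2, had one of -0.92 (limma adjusted p = 0.594). At the Clec4e end, Clec4n, Clec4d and Clec4e had positive ones. Clec4b1 encodes DCAR, an activating receptor that couples to the Fc receptor gamma chain, so not all adaptor-coupled receptors of the interval had positive fold changes. It was at 370.6, 661.3 and 456.8 normalized counts in the 11-week libraries, against 1341.9, 586 and 970.3 in the 8-week libraries. The remaining tested genes of the interval, Clec4a4 and the pseudogene Gm5883, never exceeded 27.2 normalized counts.

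Levels were compared between the receptors per kilobase of annotated exon (GENCODE M21 exon union). Clec4a3 had the highest mean, at 3178 ± 881 normalized counts per kb at 11 weeks and 3745 ± 675 at 8 weeks (SD, n = 3 each). Clec4n, Clec4a1 and Clec4d came next, with means over all 6 libraries of 2440, 2389 and 1801 per kb, and Clec4e stood at 1056 per kb. Their order differed between the ages: Clec4n (2917 per kb) and Clec4d (2166) stood above Clec4a1 (1913) at 11 weeks, whereas Clec4a1 (2865) stood above Clec4n (1962) and Clec4d (1436) at 8 weeks. Clec4a2, Clec7a, Clec5a and Clec12a followed at 581, 556, 430 and 385 per kb. The lowest mean was that of Clec12a at 11 weeks (308 per kb) and that of Clec5a at 8 weeks (397 per kb). In this order each receptor overlapped the next over the 6 libraries, except that Clec4e (757 to 1420 per kb) lay above Clec4a2 (333 to 701 per kb) in all of them. Thus 5 genes of the Clec4 cluster formed an upper group, and Clec4a2 fell in the lower one. Union lengths count exons of all isoforms, so a gene with a long, little used exon is understated.

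**Figure D4:**
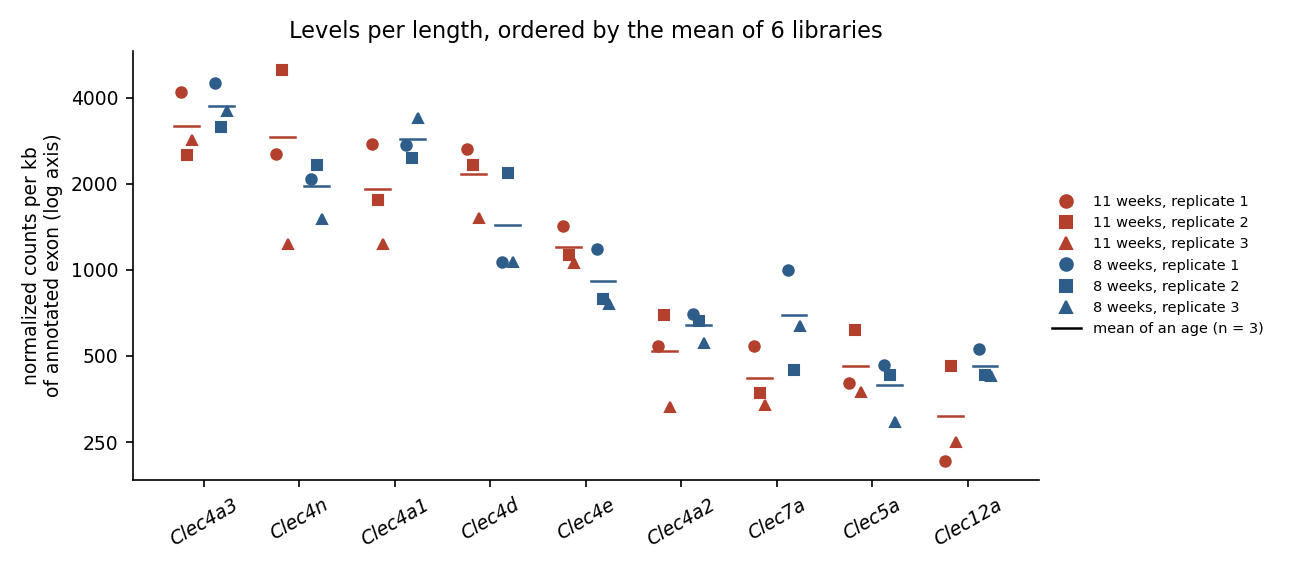
Level of each receptor in normalized counts per kb of annotated exon (log axis), ordered by the mean of the 6 libraries, with 11 weeks left of 8 weeks and bars for the mean of each age. Clec4a3 is highest and Clec12a lowest by that mean (Clec5a is lowest at 8 weeks), and the step between Clec4e and Clec4a2 is the only one where neighbours do not overlap.

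Genes outside the 9 had profiles closely similar to those of single receptors. Among 10718 genes averaging 100 normalized counts or more, the nearest outside the 9 by Pearson's r of log2(value + 1) over the 6 libraries were Dld for Clec4a2, Pdcd10 for Clec4a3, Pwp1 for Clec4d, Dnajc4 for Clec4e, Selt for Clec4n, D10Jhu81e (spelled as in the table) for Clec5a, Cdk12 for Clec7a and Apc for Clec12a. These r ran from 0.984 to 0.998, values that share the 6 libraries and their scaling. With so few libraries, such likeness describes the profile and nothing more.

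Signalling molecules of these receptors did not pass the test either: of 20 listed and tested, 0 rose and 0 fell (limma), 10 had a positive and 10 a negative log2 fold change, and the median was 0.03. Syk, the kinase that binds activated receptor complexes, was at 10337.7, 7941.7 and 10177.4 normalized counts in the 11-week libraries, against 12523.9, 11774.3 and 12070.1 in the 8-week libraries. It was the only one of the 20 whose ages did not overlap, where 11.9% of all tested genes did not. The log2 fold change of Syk was -0.36 ± 0.18 (SE, adjusted p = 0.637 with limma). Tyrobp, the adaptor of Clec5a, had a log2 fold change of 0.26 (limma adjusted p = 0.726), and Fcer1g, the gamma chain itself, one of -0.06 (limma adjusted p = 0.935, named for its role after its values were seen). Bcl10 and Malt1, which act with Card9 downstream of Syk, were at 0.43 and -0.35 on the same log2 scale, with adjusted p = 0.794 and 0.774 (limma).

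Other C-type lectins did not pass the test. Of 25 listed, 23 were tested, 0 rose and 0 fell (limma), 17 had a positive log2 fold change, and the median was 0.30. Without overlap, 3 of the 23 were higher and 1 lower at 11 weeks, where 6.81% and 5.12% of all tested genes were. Cd209d, a relative of the dendritic cell lectin DC-SIGN, was at 10954.7, 9663.5 and 14498 normalized counts in the 11-week libraries, against 6610.6, 5296.3 and 7421.2 in the 8-week libraries, without overlap (log2 fold change 0.85 ± 0.21, SE; limma adjusted p = 0.198). Mrc1, the macrophage mannose receptor, was at 106930.2, 111150.4 and 100949.2 normalized counts in the 11-week libraries, against 90154.1, 79771.4 and 90289.2 in the 8-week libraries, also without overlap (log2 fold change 0.30 ± 0.11, SE; limma adjusted p = 0.515). Cd207, which encodes langerin, had a log2 fold change of 1.73 (limma adjusted p = 0.544).

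Mediators that these receptors can induce did not pass the test, though most had positive fold changes. Of 15 listed and tested, 0 rose and 0 fell when adjusted over all genes (limma), 14 had a positive log2 fold change, and the median was 0.84. The inflammatory cytokine gene Il1b, the anti-inflammatory Il10, the neutrophil-attracting chemokine Cxcl2 and the prostaglandin enzyme gene Ptgs2 showed fold changes on the log2 scale of 1.09, 1.28, 0.71 and 0.84, with adjusted p = 0.132, 0.135, 0.259 and 0.329 (limma). Many other receptors induce the same genes.

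**Figure D5:**
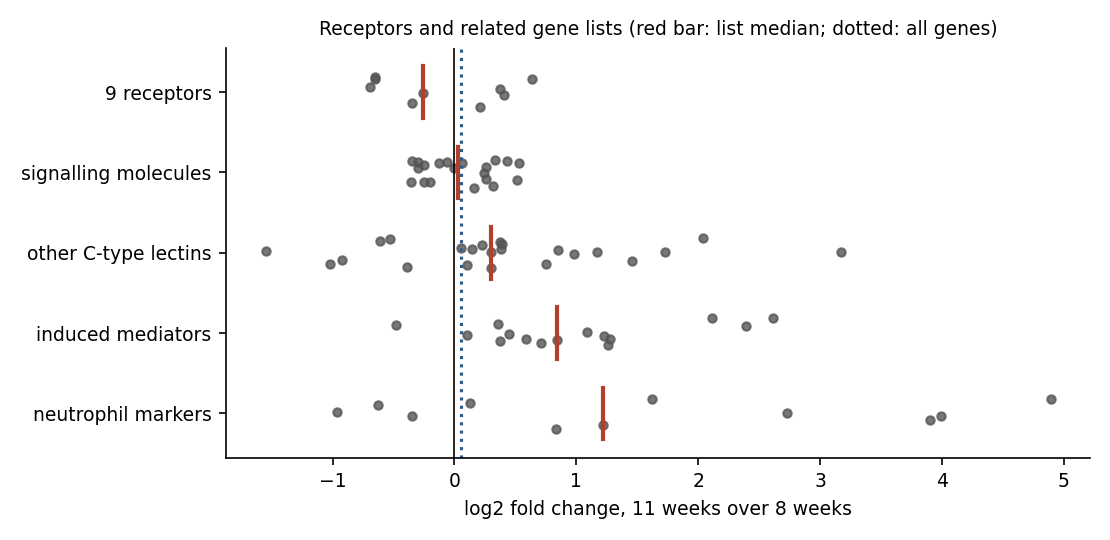
Log2 fold change, 11 weeks over 8 weeks, of each tested gene of 5 lists (1 point per gene, spread vertically only for legibility), with the list median as a red bar and the median of all tested genes (0.05) as a dotted line. The receptors scatter on both sides of 0 with a median of -0.26, while the induced mediators have a median of 0.84.

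Several of the 9 receptors, Clec4d, Clec4e, Clec5a and Clec12a among them, are also made by neutrophils. The 14 neutrophil markers summed to 6718, 7209 and 6626 normalized counts in the 11-week libraries, against 4654, 5476 and 3014 in the 8-week libraries, without overlap. Of the 11 that could be tested, 8 had a positive log2 fold change and 0 passed the test (limma). Csf3r was the largest part of the sum in every library, with a log2 fold change of 0.13. Ltf was at 1036.3, 163.3 and 1525.4 normalized counts in the 11-week libraries, against 221.1, 266 and 149.5 in the 8-week libraries. The lowest 11-week sum, in replicate 3, held the highest Ltf value, so the lack of overlap between the sums leaned on Ltf. S100a8 was at 371.5, 591.7 and 352.6 normalized counts in the 11-week libraries, against 74, 58.2 and 59.8 in the 8-week libraries. Ly6g and Elane, of the same list, stood at no more than 0.9 normalized counts in any library. Of the 11 tested markers, 4 were higher at 11 weeks without overlap, where 6.81% of all tested genes were: S100a8, S100a9, Retnlg and Cxcr2. The last 3 had log2 fold changes of 4.89, 3.90 and 3.99, with limma adjusted p = 0.175, 0.479 and 0.213. Retnlg stood at no more than 3.4 normalized counts at 8 weeks. Only 1, Mmp9, was lower without overlap, with a log2 fold change of -0.96 (limma adjusted p = 0.442). Among the 11-week libraries the neutrophil sum was highest in replicate 2. So were 4 of the 9 receptors (Clec4a2, Clec4n, Clec5a and Clec12a), whereas 5, Clec4d and Clec4e among them, were highest in replicate 1. At 8 weeks the neutrophil sum was again highest in replicate 2, as were 2 receptors, Clec4d and Clec4n. Of the others, 6 were highest in replicate 1, Clec4e, Clec5a and Clec12a among them, and 1 (Clec4a1) in replicate 3. Dendritic cell markers summed to between 10672 and 12589 normalized counts at 11 weeks and between 12517 and 16455 at 8 weeks. Tcf4 and Cd209a made up most of that sum, with log2 fold changes of -0.18 and -0.39. Of the 9 tested markers, 6 had a negative log2 fold change, 3 a positive one, and 0 passed the test (limma). Without overlap, 4 were lower at 11 weeks and 0 higher, where 5.12% and 6.81% of all tested genes were. The 4 were Cd209a, Zbtb46, Batf3 and Siglech, the last 3 with log2 fold changes of -0.75, -1.80 and -1.25. Cd209a is also among the other C-type lectins listed above. The 10 monocyte markers summed to between 11127 and 15851 at 11 weeks and between 12500 and 24840 at 8 weeks. Ccr2 made up most of the monocyte sum and had a log2 fold change of -0.72, while 8 of the 10 markers had a positive one (median 0.93) and 0 passed the test (limma). Among the 8-week libraries the monocyte sum was highest in replicate 1, where 6 of the 9 receptors were also highest within their age. Epithelial markers summed to between 23968 and 46618 normalized counts at 11 weeks and between 7761 and 11453 at 8 weeks, and 1 of 13, the casein gene Csn3, rose (log2 fold change 1.98; adjusted p = 0.000888 with limma). Markers of T, NK and B cells summed to between 493 and 829 at 11 weeks and between 170 and 570 at 8 weeks. The part of these cells in the receptor values was not tested.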

How the data were processed

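The deposited table gives 1 signal value per gene and library, which its values show to be counts divided by 1 size factor per library (normalized counts). The authors also deposited, for their own comparison, p-values with and without adjustment, a linear ratio and its log2 fold change. STAR 2.4, DESeq2 1.6 and GRCm38 are named, with no role, per the submitters' processing notes. The sources used here do not name the counting tool or say whether strand was used. Columns were matched to samples by age and number. Divided by the worth of 1 read, no fewer than 99.859% of nonzero values per library came out whole, to within 0.05 normalized counts.

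limma 3.58.1 (trend, robust) was fitted to log2(value + 1) of genes averaging 1 normalized count or more at either age, with age as the only term, and Benjamini-Hochberg adjustment ran over all 21675 genes. edgeR 4.0.16 and DESeq2 1.42.0 were run on recovered reads as alternatives (R 4.3.3). The limma and edgeR fits were also run on simulated counts, where both missed most of the genes set to change, so a gene not called may still differ. Adgre1 was found under its gene ID, and the other listed genes by symbol. Named genes are the 9 receptors, up to 4 of each related list with the smallest limma p, and the gene nearest in profile to each receptor. Fcer1g, Clec4a4, Gm5883, Csn3 and the macrophage, monocyte, neutrophil and dendritic cell markers were added after their values were seen. The gene nearest to Clec4a1 is not reported here. The members and lists were chosen with earlier results of these data known. Clec4a2 overlaps the annotated pseudogene Gm44132.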

Additional observations from a re-analysis of the deposited data

How the results depend on the processing

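Under all 18 alternatives 0 of the 9 receptors were called, with a lowest adjusted p of 0.337 (Clec7a, DESeq2), and 160 of the 162 receptor fold changes kept their sign. The 2 that did not were those of Clec4n and Clec5a without 11-week replicate 2, at -0.13 and -0.01 on the log2 scale (limma); the cause was not tested. With 1 library left out, log2 fold changes ran from -0.13 to 0.88 for Clec4n, -0.01 to 0.35 for Clec5a, 0.47 to 0.98 for Clec4d, 0.29 to 0.62 for Clec4e, -0.97 to -0.38 for Clec7a, -0.98 to -0.43 for Clec12a, -0.95 to -0.37 for Clec4a1, -0.58 to -0.06 for Clec4a2 and -0.47 to -0.11 for Clec4a3. The median of the 9 ran from -0.40 to -0.06 when 1 library was left out. The number of genes called among all tested was 11, and it was 445 with DESeq2, 26 with limma-voom, 4 with scaling to library totals and 5 with a pseudocount of 8; the cause was not tested. Leaving out 1 library gave 3 to 16 called genes (3 without 8-week replicate 1, 4 without 11-week replicate 1). With the replicate number as a block 45 genes were called, none of them a receptor. Deviations of same-numbered libraries correlated at -0.011, -0.004 and -0.01 over 11338 genes, so no pairing by number showed over these genes as a whole. Such a correlation cannot exclude pairing that acts on part of the genes. The block changed no call among the receptors. Depth limited the receptor values less than the spread between libraries did. The ratio between receptor groups and its alternatives were chosen after seeing the data.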
